A study of Rattus norvegicus with 5 samples.

Results

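The regions described here are the 137579 peaks of an antibody against N6-methyladenine (6mA) in DNA of rat Neurons, called by the authors against Neuron input DNA. They make up 137579 of the 375486 peaks in the 3 lists called over input, beside 121816 in NSCs and 116091 in Astrocytes. Every Neuron peak placed on 1 of 22 chromosomes was taken, and each was sorted by whether it overlapped, by at least 1 bp, a peak of the NSC list or of the Astrocyte list. A peak that overlapped neither list is called unshared below, and a peak that overlapped both is called shared by all 3 lists. Unshared means not listed in NSCs or Astrocytes, since a region under the calling threshold there is missing from a list whether or not it holds signal.

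The groups were Neurons, given by cell type only, then Astrocytes, given by cell type only, and NSCs, given as the line SCR022, a line of adult rat hippocampal neural stem cells. Each gave 1 immunoprecipitated library, and Neurons and NSCs each gave an input library, which is DNA from the same cells before enrichment. The origin of the Neurons, their culture, age, sex, strain and treatment are not given in the labels, and no group carries a labelled genetic change. Expression was not measured, so the label Neurons could not be checked against marker genes. The Neuron library held 16095308 reads, of which 86.55% mapped uniquely and 10.2% did not map, against 22329441 reads in the Neuron input, of which 99.48% mapped uniquely and 0.189% did not map. The immunoprecipitated libraries of Astrocytes and NSCs held 15767015 and 15760246 reads, so the 3 enriched libraries were of nearly the same depth. The inputs were less alike: the NSC input held 27936774 reads, more than the Neuron input, and the depth of the Astrocyte input is not reported here. The part of input depth in the length of the lists was not tested. With 1 library per cell type there is no spread between replicates to hold a difference against, and intervals below are exact Clopper-Pearson 95% intervals that cover counting error only.

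N6-methyladenine is a base modification that is common in bacterial DNA, where it marks self DNA and guides repair. Its amount and role in mammalian DNA are debated, and N6amt1, the enzyme named in the title of the series, has been proposed as a methyltransferase that writes it. Txnrd3, the other gene of the title, is a thioredoxin reductase that uses NADPH to reduce thioredoxin and glutathione. An antibody enriches DNA fragments and does not show which adenine, or whether any, was methylated, and no second method was analysed here.

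Neuron peaks at miRNA genes are shown first because their mature sequences are short and 1 peak can be assigned to several of these genes. miRNAs are short RNAs that pair with messenger RNAs, mainly through the seed at bases 2 to 8. The annotation of the authors placed 40 Neuron peaks at 47 miRNA genes, within the gene, its promoter or its 2 kb flanks. Of these peaks 16 were unshared, at 22 miRNA genes, and 12 were shared by all 3 lists. The unshared part of the 40 peaks was 40.0%, against 36.1% of all Neuron peaks, and with so few peaks these shares are close. An unshared peak on the X chromosome at 140117924 to 140118281, with a score of 59.1 and a fold of 9.66 over input, was assigned to 5 genes of 1 miRNA cluster, a relative of the miR-17 cluster known for its part in cell proliferation. A second unshared peak, on chromosome 6 at 133870814 to 133871190 with a score of 65.2 and a fold of 7.44, was assigned to Mir376b, Mir376c and Mir667, which lie in a large imprinted miRNA cluster. The mature sequences, from RefSeq on GRCr8 and matched by gene symbol for 43 of the 47 genes, are given 5′ to 3′ with the seed in capitals. The first 5 are products of the genes assigned to the X chromosome peak and are ordered by seed, and the table lists the product of Mir106a under the name rno-miR-17-5p.
rno-miR-92a-3p: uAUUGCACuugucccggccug
rno-miR-363-3p: aAUUGCACgguauccaucugu
rno-miR-20b-5p: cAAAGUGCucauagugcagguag
rno-miR-17-5p: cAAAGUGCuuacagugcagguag
rno-miR-19b-3p: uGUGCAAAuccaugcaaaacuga
rno-miR-376b-5p: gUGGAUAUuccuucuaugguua
rno-miR-376c-5p: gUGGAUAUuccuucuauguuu
rno-miR-375-3p: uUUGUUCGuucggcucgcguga
rno-miR-129-5p: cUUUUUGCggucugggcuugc
rno-miR-509-3p: uGAUUGACaugucugcagugga
rno-miR-187-3p: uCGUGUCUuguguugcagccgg

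Among these sequences the products of Mir92a2 and Mir363 share 1 seed, those of Mir20b and Mir106a share another, and the 5p products of Mir376b and Mir376c have a seed of their own in common. The last 4 sequences stand for single genes with their own peaks. Mir375, best known in pancreatic islets, lay beside an unshared peak in a CpG island and in the promoter class on chromosome 9, with a score of 150 and a fold of 14.0. Mir129-2 also had an unshared CpG island peak, near the calling threshold at a score of 50.2 and with a fold of 10.4. Mir509 had the highest scoring unshared peak at a miRNA gene, with a score of 221 and a fold of 27.8, in the 2 kb downstream of the gene. Mir187 had the highest scoring peak of all 40, with a score of 2503 and a fold of 110, and that peak was shared by all 3 lists. The miRNA genes were singled out after the values had been seen, so these numbers are a description.

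Promoter sequences are shown for Txnrd3 and for 3 genes with high scoring unshared promoter peaks, so that the base composition described below can be read. They are from RefSeq on GRCr8, run from 250 bases before to 50 after the gene start, and are given 5′ to 3′ on the strand of the gene. Txnrd3 is at chromosome 4, 123629518 to 123629817 on the plus strand, Gosr2 at chromosome 10, 89105583 to 89105882 on the minus strand, Rgs2 at chromosome 13, 58352617 to 58352916 on the minus strand and Hivep2 at chromosome 1, 10179152 to 10179451 on the plus strand. Capitals mark CAGGC, its variant CAGGT, and the forms GAGGC or also GAGGT, on either strand, a motif family reported for 6mA in human DNA. No label or header names the build of the peak files, so no base of these promoters could be placed under a peak.
Txnrd3 promoter: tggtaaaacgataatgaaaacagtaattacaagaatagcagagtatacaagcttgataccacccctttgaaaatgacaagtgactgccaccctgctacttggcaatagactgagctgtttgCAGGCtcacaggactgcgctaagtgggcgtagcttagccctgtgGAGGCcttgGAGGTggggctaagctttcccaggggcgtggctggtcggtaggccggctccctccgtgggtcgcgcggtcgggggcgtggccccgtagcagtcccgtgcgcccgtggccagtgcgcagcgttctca
Gosr2 promoter: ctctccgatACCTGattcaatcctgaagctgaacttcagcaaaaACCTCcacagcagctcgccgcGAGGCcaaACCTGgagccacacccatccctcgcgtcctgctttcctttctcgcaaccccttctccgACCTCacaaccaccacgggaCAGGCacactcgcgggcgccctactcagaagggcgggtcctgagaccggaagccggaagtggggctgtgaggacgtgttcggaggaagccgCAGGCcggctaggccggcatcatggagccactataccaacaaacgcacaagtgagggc
Rgs2 promoter: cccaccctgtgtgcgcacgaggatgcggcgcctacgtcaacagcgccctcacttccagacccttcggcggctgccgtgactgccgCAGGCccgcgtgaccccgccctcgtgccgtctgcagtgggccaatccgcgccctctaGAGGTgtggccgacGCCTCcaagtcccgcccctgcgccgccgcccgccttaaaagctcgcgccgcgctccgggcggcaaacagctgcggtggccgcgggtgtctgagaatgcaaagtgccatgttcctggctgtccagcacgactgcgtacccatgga
Hivep2 promoter: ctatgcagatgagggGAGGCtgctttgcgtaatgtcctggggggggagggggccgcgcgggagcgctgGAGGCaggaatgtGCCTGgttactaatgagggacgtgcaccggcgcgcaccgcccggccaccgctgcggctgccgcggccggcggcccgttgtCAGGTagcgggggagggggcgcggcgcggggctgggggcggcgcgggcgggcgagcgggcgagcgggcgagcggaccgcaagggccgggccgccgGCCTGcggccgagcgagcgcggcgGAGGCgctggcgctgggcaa

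The printed promoters hold 3 such motifs at Txnrd3, 7 at Gosr2, 3 at Rgs2 and 6 at Hivep2, and G and C make up 58.0%, 61.3%, 69.7% and 78.3% of their bases. At least 1 of the 4 motifs was in 95.2% of the 799 promoters of the table whose gene had an unshared Neuron promoter peak, in 97.0% of the 745 with a peak shared by all 3 lists, and in 93.9% of all 27457 promoters of the table. The motif is thus in nearly every promoter of this length. GAGGAG, searched on both strands, was in 35.8% of promoters of unshared peaks, 38.0% of those of peaks shared by all 3 lists and 33.5% of all promoters. A match is a string of letters in a window, not a methylated site.

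The Neuron list was split nearly evenly between unshared peaks and peaks found in all 3 lists. Unshared peaks numbered 49711, or 36.1% of the list (35.9 to 36.4), and held 29.4% of the bases it covered. Another 53097 peaks, 38.6% (38.3 to 38.9), were shared by all 3 lists, and they held 47.6% of the covered bases. The NSC list alone accounted for 17774 more, 12.9%, and the Astrocyte list alone for 16997, 12.4%. The share in neither list depended on the threshold. It was 15.4% of the Neuron peaks above the median score when all NSC and Astrocyte peaks were kept for the comparison, and 31.1% when the same minimum score was set in all 3 lists.

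Unshared peaks were the low and narrow part of the list. Their median score, which is 10 times the −log10 of the peak caller's p, was 65.8, against 201 for peaks shared by all 3 lists and 88.3 for all Neuron peaks. The median fold over input was 10.6 in unshared peaks, against 19.3 in those shared by all 3 lists, and the largest fold was 43.5, against 343. Median width was 393 bp, against 572 bp. Peaks shared with 1 other list lay in between, with median scores of 79.6 for NSCs only and 82.0 for Astrocytes only. All 477 peaks with a score of 3100 or more were shared by all 3 lists.

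**Figure D1:**
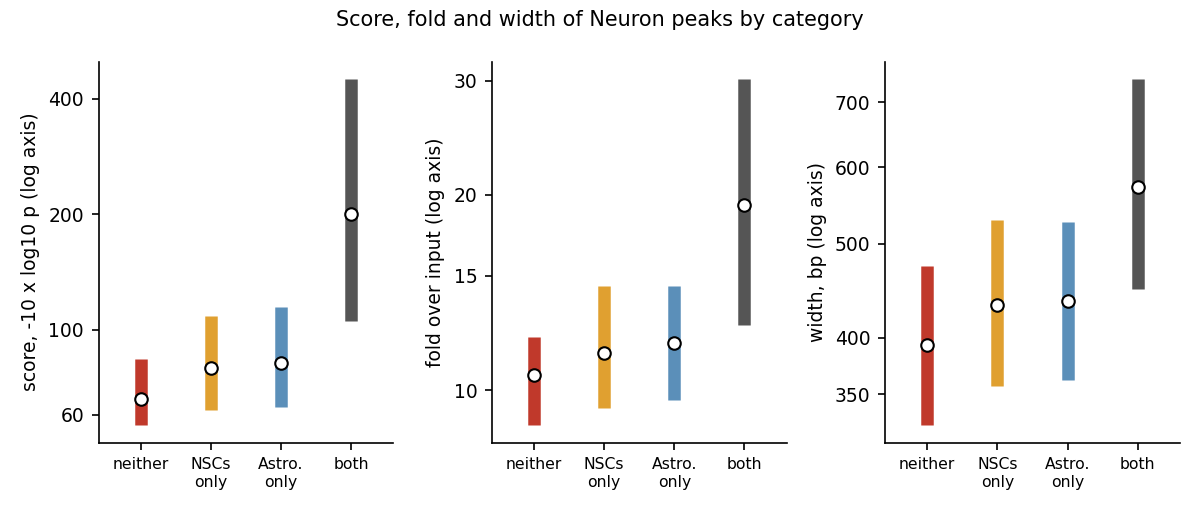
Score, fold over input and width of Neuron peaks (log axes) by presence in the other lists, where neither is unshared and both is shared by all 3 lists; circles are medians and bars run between the quartiles. Unshared peaks have the lowest medians, 65.8, 10.6 and 393 bp, and peaks shared by all 3 lists the highest, 201, 19.3 and 572 bp.

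Across deciles of the score the share of unshared peaks declined at every step. It was 57.1% in the third decile, 45.1% in the fifth, 25.8% in the seventh, 12.3% in the eighth and 1.48% in the ninth. Peaks shared with 1 other list did not follow that course. The share found with NSCs only was 12.7% in decile 1, reached 18.5% in decile 6 and was 4.07% in decile 9, and the share found with Astrocytes only peaked at 17.9% in decile 7. Width ran the same way as score: 60.9% of peaks under 300 bp were unshared, 22.5% of those from 500 to under 750 bp and 4.61% of those of 1000 bp or more.

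**Figure D2:**
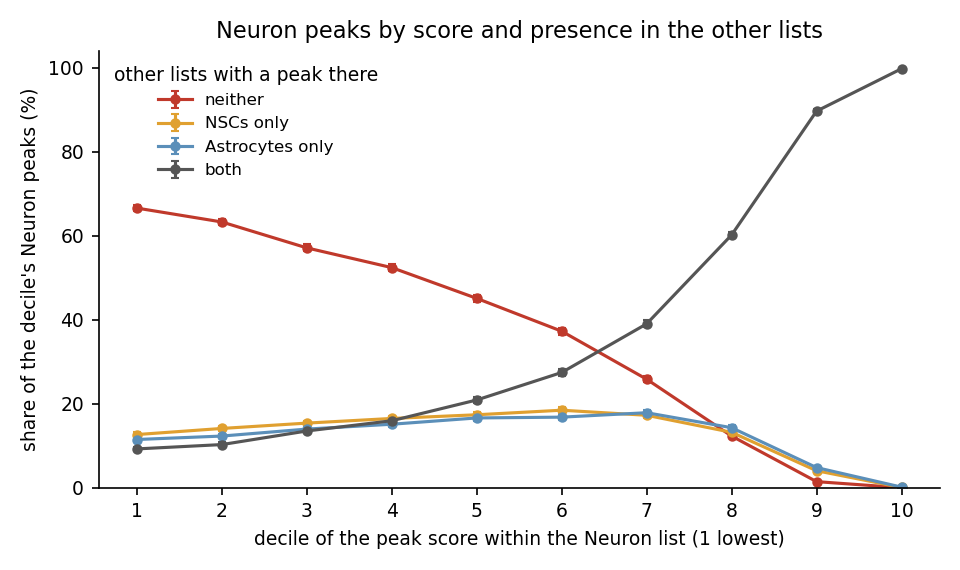
Share of Neuron peaks in each category (percent, y axis) by decile of the peak score within the Neuron list (x axis), where neither is unshared and both is shared by all 3 lists; bars are 95% intervals for counting error. The unshared share is 45.1% in the fifth decile and 1.48% in the ninth, where 89.6% of peaks are shared by all 3 lists.

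Overlap was mostly either deep or absent, so the 1 bp rule decided few peaks. Among the 87868 Neuron peaks that overlapped another list, a single peak of that list covered a median of 91.8% of the Neuron peak (quartiles 78.4% and 100%), and 96.7% were covered by at least 50%. Just inside the rule, 186 peaks overlapped by at most 25 bp, with a median score of 66.0. Just outside it, 180 unshared peaks lay within 25 bp of a peak of another list, with a median score of 65.9. The typical unshared peak was 4768 bp from the nearest NSC or Astrocyte peak (quartiles 1792.5 and 10473 bp). Only 8.37% lay within 500 bp of one, and 0.551% were more than 50000 bp away. With the median Neuron score as a minimum in all 3 lists that median distance was 10942 bp.

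The authors also compared enriched libraries directly, and which library of a pair is the higher one is read here from the names of the comparisons. Regions listed as higher in Neurons than in NSCs overlapped 33.1% of unshared peaks, against 9.01% of peaks shared by all 3 lists and 19.7% of all Neuron peaks. Regions listed as higher in Neurons than in Astrocytes overlapped 39.9% of unshared peaks, against 7.43% of those shared by all 3 lists and 22.1% of all. Both comparisons together listed 9542 unshared peaks as higher in Neurons, 19.2% (18.8 to 19.5), against 2.41% of peaks shared by all 3 lists and 8.47% of all. At least 1 comparison listed 53.9% of unshared peaks as higher in Neurons, against 14.0% of those shared by all 3 lists. Only 10 unshared peaks overlapped a region listed as lower in Neurons in either comparison, against 2557, or 4.82%, of the peaks shared by all 3 lists. These comparisons use the same 3 enriched libraries whose peak lists define unshared and shared peaks, so the contrast between the categories follows in part from the sorting and is given as a description. The list against NSCs held 32213 regions and the list against Astrocytes 39716, and the part of that in the difference between 33.1% and 39.9% was not tested.

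Peaks shared with 1 other list were sorted by the same libraries, so their listing against the cell type that lacked them follows in part from the sorting. Of the peaks found with NSCs only, 34.1% were listed as higher in Neurons than in Astrocytes and 2.28% as higher than in NSCs. Of those found with Astrocytes only, 32.3% were listed as higher in Neurons than in NSCs and 3.22% as higher than in Astrocytes. Within unshared peaks the share listed as higher in both comparisons went with the score: 6.16% in score decile 1, 22.2% in decile 5, 65.4% in decile 8 and 90.1% in decile 9, where 183 of 203 were listed. Of the 4 unshared peaks in the top decile, 2 were listed in both comparisons.

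**Figure D3:**
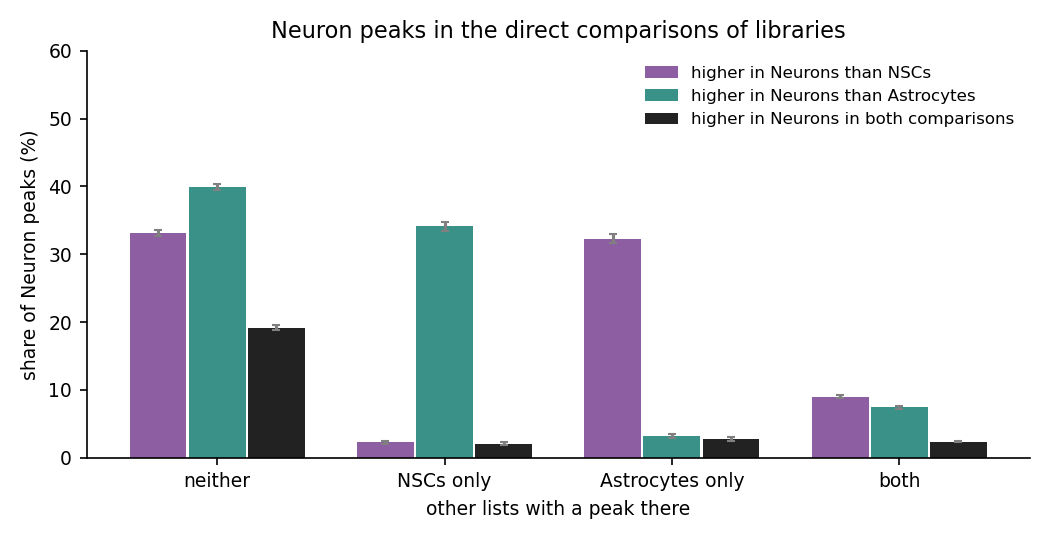
Share of Neuron peaks (percent, y axis) that overlap a region the authors list as higher in Neurons than NSCs, than Astrocytes, or in both comparisons, by presence in the other lists (x axis); error bars are 95% intervals for counting error. Unshared peaks reach 33.1%, 39.9% and 19.2%, and peaks shared by all 3 lists 9.01%, 7.43% and 2.41%.

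The highest scoring unshared peaks at named genes were mostly intronic, as were most unshared peaks at genes. Introns held 33.1% of all unshared peaks, promoters 3.28% and exons 3.22%, and 62.0% lay outside any gene class. Csmd2, a transmembrane protein with CUB and sushi domains found at synapses, held the highest at chromosome 5, 146403158 to 146406190, with a score of 451 but a fold of only 5.55 over 3032 bp. Spidr, a scaffold in recombination repair, followed on chromosome 11 with a score of 373 and a fold of 24.9, and Gcn1l1, which helps sense stalled translation, on chromosome 12 with a score of 358 and a fold of 14.1. Tbc1d32, a cilium protein, scored 334, and Fam155a, a partner of the sodium leak channel, scored 332. Cacna2d4, an auxiliary subunit of calcium channels, scored 330 with a fold of 22.6, and Hvcn1, a voltage-gated proton channel, scored 298 with a fold of 18.7. Ocm2, an oncomodulin gene, had a promoter peak with a score of 316. Olr1185, an olfactory receptor, scored 295 and Aaed1, a peroxiredoxin-like protein, 286. Of these 10 genes' peaks, 9 were listed as higher in Neurons than in both other cell types, and the Csmd2 peak was listed as higher than in NSCs alone. Among all unshared peaks of score decile 9, with scores of 206 to 436, 90.1% were listed in both comparisons. The named peaks were picked by score in the same Neuron library that the comparisons use. In the authors' deposited table of Neurons against NSCs the regions at Hvcn1, Tbc1d32 and Spidr had folds of 12.3, 11.2 and 9.97. These were the largest of the 10 over NSCs, and the smallest was 4.59 at Csmd2. Against Astrocytes the same regions had folds of 9.43, 9.48 and 9.48 in the authors' deposited table. There the regions at the named peaks ran between 5.08 at Fam155a and 13.5 at Olr1185, with none listed at Csmd2.

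Larger unshared peaks lay at genes with placeholder names or outside any gene class. Without a limit on the gene name, the highest score was 2759, with a fold of 13.9, at chromosome 1, 55738006 to 55739103, and the peak beside it, 55739138 to 55742627, scored 1050 with a fold of 16.2. Both were in the promoter class. The first was listed as higher in both direct comparisons and the second in neither. A peak on the X chromosome at 18227039 to 18228831 scored 747 with a fold of 5.91. The highest fold among these peaks without a named gene, 43.5, was that of a 290 bp peak outside any gene class on chromosome 15 at 65422294 to 65422584. These peaks were picked after their values were seen.

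By fold, 8 of the 10 leading unshared peaks at named genes were intronic, the class of most unshared peaks at genes. Olr1185 came first with a fold of 31.4. Pappa2, a protease of the insulin-like growth factor system, had a fold of 30.2 at chromosome 13, 76472340 to 76472743. Sema5a, a guidance semaphorin, had 29.9, Kcnt2, a sodium-activated potassium channel, 29.0, and Dpp10, an auxiliary subunit of Kv4 potassium channels, 29.0. Cdh10, a cadherin, and Mir509 both had 27.8, while Dtwd2, Galntl6 and Ubap1 had 29.0, 28.7 and 28.5. All of these peaks were listed as higher in Neurons in both direct comparisons. Their scores lie in deciles 8 and 9, where 65.4% and 90.1% of all unshared peaks were so listed. At Pappa2 the authors' deposited table gave a fold of 30.8 over NSCs and 12.3 over Astrocytes, and at Dpp10 the authors' deposited table gave 29.6 and 10.2. Those were the largest of the 10 over NSCs, where the smallest was 8.38 at Kcnt2. Over Astrocytes the 10 ran between 7.47 at Galntl6 and 18.9 at Sema5a in the authors' deposited table. The Sema5a, Dtwd2 and Cdh10 peaks lay 169, 295 and 365 bp from a peak of another list, while the Mir509 and Olr1185 peaks were 24489 and 15443 bp away.

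The highest scoring peaks shared by all 3 lists were of another order, but their ranks carry little: 427 of the 477 peaks with a score of 3100 or more have exactly that value. Rnf150, Btbd16, Ahrr and Napsa had scores of 3233, 3228, 3224 and 3224, and folds of 56.2, 49.1, 130 and 107. Fstl1, a secreted glycoprotein, had a score of 3204 and a fold of 173, and Agrn, which organises the neuromuscular synapse, a score of 3217 and a fold of 105. Of these and the peaks named next, those at Btbd16 and Aox2, an aldehyde oxidase, were listed as higher in Neurons, in both cases against NSCs alone. The peaks at C7, a complement component, and Tmprss11a, a serine protease, scored 3224 and 3197. Of the 5 widest Neuron peaks none was unshared. The widest spanned 8974 bp on chromosome 16, with a fold of 3.31, and was found with NSCs only.

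Among the annotation classes, the unshared share departed most from that of the whole list in CpG islands, stretches rich in the CG dinucleotide that often mark promoters. Of the 289 Neuron peaks in a CpG island, 156 were unshared, 54.0% (48.0 to 59.8), against 36.1% of all Neuron peaks. CpG island shores had 42.1% (39.5 to 44.6), promoters touching an island or a shore 46.0% (41.8 to 50.3) and promoters without either 35.7% (34.2 to 37.2). Exons, introns and peaks outside any gene class had 38.1%, 35.3% and 36.5%. The median score of CpG island peaks was 88.3, the same as that of all Neuron peaks, while their median fold was lower. With every class given the score make-up of the whole list the island share was 53.7%. The cause of the higher island share was not tested. Among peaks above the median score, 37 of 145 island peaks were unshared, 25.5% (18.6 to 33.4), against 15.4% of all. With the same minimum score in all 3 lists the island share was 42.1% of 145 peaks, against 31.1% of all Neuron peaks kept.

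Dkc1, which encodes dyskerin, a subunit of telomerase and of RNA pseudouridylation complexes, held the highest scoring unshared island peak, with a score of 269 and a fold of 9.74, 176 bp from a peak of another list. Hivep2, a zinc finger transcription factor with a role in the brain, followed with a score of 187 and a fold of 21.6. Mmp16, a membrane-type metalloproteinase, had a score of 167 and a fold of 20.5, and Plxna4, a semaphorin receptor of axons, 158 and 21.7. The fifth was the peak of Mir375 described above, which also touches Cfap65, a flagellar protein. The 5 were listed as higher in Neurons in both direct comparisons except Plxna4, which was listed against NSCs alone. In score deciles 8 and 9, which hold these peaks, 65.4% and 90.1% of all unshared peaks were listed in both.

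Promoters held 4404 Neuron peaks, and 1629 of them, 37.0% (35.6 to 38.4), were unshared. They named 839 of the 2020 named genes with a Neuron promoter peak. After Ocm2, the highest scores were those of Gosr2, a Golgi SNARE protein, at 236 with a fold of 20.8, Rgs2, a regulator of G protein signalling, at 232 with a fold of 19.3, and Rxfp1, the relaxin receptor, at 220 with a fold of 16.9. Cotl1, an actin-binding protein, scored 214, Hivep2 187, Ctla4, an inhibitory receptor of T cells, 185 and Sun1, a protein of the nuclear envelope, 173. The olfactory receptors Olr1595 and Olr444 scored 178 and 169. All 10 peaks were listed as higher in Neurons in both direct comparisons, as were 65.4% and 90.1% of all unshared peaks in score deciles 8 and 9, which hold them. The promoters of genes with unshared promoter peaks had a slightly higher median content of G and C, 56.3% for the 799 promoters in the table, 54.0% for the 745 of peaks shared by all 3 lists and 52.3% for all promoters of the table. Single promoters varied far more: among the genes named here it was 78.3% at Hivep2 and 69.7% at Rgs2 but 51.0% at Sun1, 45.3% at Ctla4 and 40.0% at Olr444. The median number of CG dinucleotides was 13, against 7 and 7. Only 1920 of the 4269 genes with a Neuron promoter peak were in the table, and this composition was measured after the shares by class had been seen.

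At Txnrd3 the Neuron list held 5 peaks and 3 of them were unshared. The promoter peak, at chromosome 4, 121611399 to 121611828, had a score of 105 and a fold of 13.3, lay 8547 bp from the nearest peak of another list and was listed as higher in Neurons than in NSCs but not than in Astrocytes. The unshared intronic peaks at 121639204 and 121641828 had scores of 115 and 56.9 and were listed as higher than in Astrocytes but not than in NSCs. In the authors' deposited table the promoter region had a fold of 12.5 over NSCs. The other peaks were weak as well, with scores of 51.8 for an exonic one shared with Astrocytes and 77.6 for an intronic one shared by all 3 lists. N6amt1 had no Neuron peak and none in the NSC or Astrocyte list, where 45.0% of all protein-coding genes had a Neuron peak.

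Unshared peaks were spread more evenly over chromosomes than shared ones. Across the 20 autosomes their density, over the length up to the last peak, ran between 11.5 per Mb on chromosome 14 and 19.9 per Mb on chromosome 2, with a median of 18.2. The density of peaks shared by all 3 lists ran between 12 per Mb on chromosome 14 and 34.1 per Mb on chromosome 12, with a median of 20.8. On chromosome 12, where the list was densest, 28.7% of peaks were unshared (27.3 to 30.2), against 39.2% on chromosome 4 (38.2 to 40.3), the highest of the autosomes. On the X chromosome 46.1% of 5538 peaks were unshared (44.8 to 47.5), at 16.0 per Mb, and on the Y chromosome 26 of 51. Peaks shared by all 3 lists stood at 8.45 per Mb on the X chromosome, under the 12 per Mb of the lowest autosome. The median score was 75.9 on the X chromosome and 114 on chromosome 12, against 88.3 for all Neuron peaks. The number of X chromosomes in each library is not known, and its part in the X share was not tested.

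**Figure D4:**
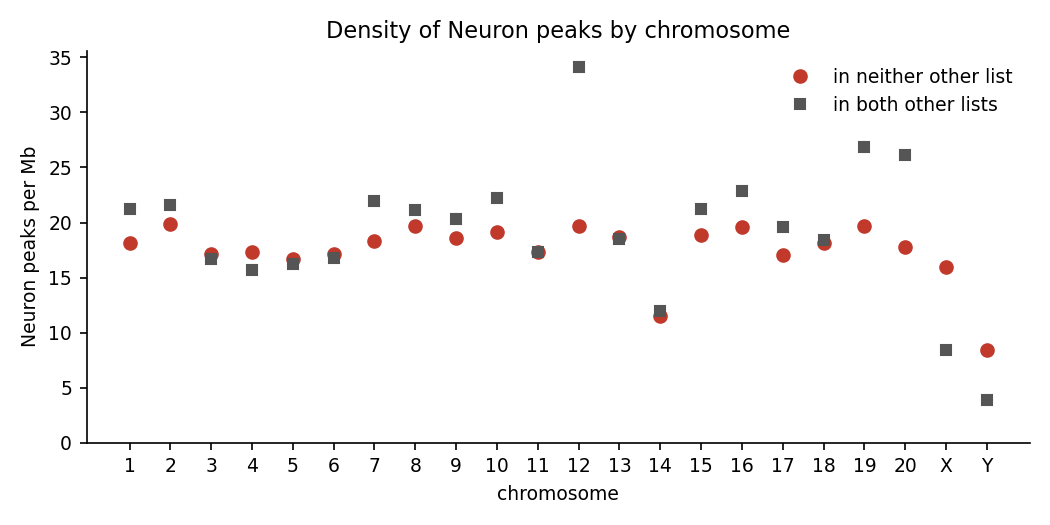
Neuron peaks per Mb (y axis) on each chromosome (x axis), for unshared peaks (circles) and peaks shared by all 3 lists (squares). Unshared peaks keep between 11.5 and 19.9 per Mb on the autosomes, while shared peaks run between 12 and 34.1 per Mb.

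Genes followed their length. The Neuron list named 17069 gene symbols, of which 10353 were not placeholders, and 6474 of these, 62.5%, held an unshared peak. Of 23148 protein-coding genes in the RefSeq table, 45.0% had a Neuron peak and 28.1% an unshared one. In the shortest length decile 11% had a Neuron peak and 4.67% an unshared one, in the sixth decile 44.5% and 22.0%, and in the longest 90.5% and 80.7%. The unshared part of the peaks in genes lay between 33.9% and 42.3% in every length decile, with 35.7% in the fifth and 35.2% in the longest. The genes with the most unshared peaks were all longer than 1000 kb. Ctnna3, an alpha-catenin, had 46 unshared peaks of 118, Dpp10 had 40 of 116, Galntl6, a glycosyltransferase-like gene, 37 of 102 and Cntnap2, a cell adhesion protein of the axon, 37 of 80. Robo2, a receptor for the guidance factor Slit, had 31 of 64 and Cntnap5c 30 of 60. The remaining 4 of the first 10 genes were Naaladl2 with 35 of 74, Csmd3 with 35 of 83, Csmd1 with 29 of 82 and Prkg1, a cyclic GMP-dependent kinase, with 28 of 95.

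Per length, other genes led. Ddx59, an RNA helicase, had 5 unshared peaks of 7, or 18.4 per 100 kb, against 1.38 per 100 kb over all protein-coding genes. Ehf, an ETS transcription factor, had 12.4, Chia, a chitinase, 11.9, and Acsl1, a long-chain acyl-CoA synthetase, 9.06 per 100 kb with 6 unshared peaks of 7. Apoo, a mitochondrial membrane protein, had 9 unshared peaks of 11, and Bin1, which bends membranes, 5 of 7. Gatsl2, Sult2a1 and Lmcd1 had 11.7, 8.77 and 8.49 per 100 kb. Psd2, an exchange factor for Arf proteins, had 9.66 per 100 kb, and all of its 5 peaks were unshared.

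Few genes had peaks in Neurons and none in the other lists. There were 1186 such named genes, 11.5% of 10353, and 1017 of them had a single Neuron peak, 148 had 2 and 21 had 3 or more. Their median length was 14.3 kb, against 39.3 kb for all named genes with a Neuron peak. Psd2 led with 5 peaks, followed by Lmnb1, a lamin of the nuclear envelope, and Atg16l1, an autophagy protein, with 4 each. Mthfd1, an enzyme of folate metabolism, Ifnar1, a subunit of the type I interferon receptor, and Atp1b4, Gpr143, Lrrc72, Vwa5b2 and Sh2d1a had 3 each. Scores at these 10 genes were low, with the highest, 159, at Ifnar1 and a highest score of 56.6 at Atg16l1.

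Most members of the neuronal gene lists had Neuron peaks, as did most other long genes. Between 71.4% and 92.5% of the members of the 8 lists had one, against 45.0% of all protein-coding genes. Among glutamate receptors, which carry most fast excitation, 23 of 26 genes had a Neuron peak and 20 an unshared one, with a median of 11.5 peaks per gene. GABA and glycine genes, which serve inhibition, had 25 and 20 of 28, with a median of 5.5. Synaptic adhesion and scaffold genes had 35 and 33 of 40, voltage-gated channels 39 and 35 of 45, axon guidance genes 37 and 36 of 40 and presynaptic release genes 32 and 25 of 38. Cytoskeletal and axon initial segment genes had 20 and 15 of 26, and neuronal fate factors 25 and 15 of 35. The median lengths of these 8 lists ran from 90.3 to 445 kb, and the length deciles with medians of 75 and 186 kb had Neuron peaks in 84.1% and 90.5% of genes. An unshared peak was found in 60.6% and 80.7% of the genes of those deciles, and in 28.1% of all protein-coding genes. The other cell types had peaks in similar numbers of members: in glutamate receptors 23 genes had a peak in Neurons, 24 in Astrocytes and 25 in NSCs, in presynaptic genes 32, 34 and 30, and in voltage-gated channels 39, 38 and 39.

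The part of the peaks that was unshared was 43.6% of the peaks of GABA and glycine genes (36.7 to 50.7), 40.0% in cytoskeletal genes, 39.6% in glutamate receptors, 38.3% in guidance genes and 32.6% in presynaptic genes (27.9 to 37.6), against 35.7% over all protein-coding genes (35.2 to 36.1). In glutamate receptors, Grm7 had 28 unshared peaks of 41 and Grm8 20 of 61. Gabrg3, a GABA receptor subunit, had 13 of 31, Gphn, which encodes the inhibitory scaffold gephyrin, 11 of 15, and Gabra3 7 of 11. Among adhesion genes Csmd3 and Csmd1 led, followed by Ctnna2 with 26 of 52. Kcnma1, a calcium-activated potassium channel, had 24 of 42, Kcnh8 15 of 31 and Cacna2d3 15 of 43. After Robo2 in the guidance list came Dcc, a netrin receptor, with 18 of 48 and Ephb1 with 16 of 32. Unc13c and Erc2, proteins of the active zone, had 13 of 39 and 13 of 42, and Ppfia2 12 of 31. Ank3 and Ncam1 followed Cntnap2 among cytoskeletal genes with 10 of 28 and 9 of 16. Zbtb20, a transcription factor of hippocampal development, led the fate factors with 13 of 22, before Rbfox1 with 7 of 15 and Npas3 with 7 of 26.

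The lists of other cells, redox enzymes and adenine methylation genes had Neuron peaks in 50.0% to 66.7% of their members, against 45.0% of all protein-coding genes. The lists are small: the interval for vessel genes ran between 34.9% and 90.1%. Microglia genes, with a median length of 6.82 kb, had 57.1%, against 25.8% in the length decile with a median of 8.08 kb. Adenine methylation genes, with a median of 29.1 kb, had 55.6%, against 60.6% in the decile with a median of 28.0 kb. The part of length in these shares was not tested. Astrocyte genes had Neuron peaks in 17 of 26 and unshared ones in 15, where 28.1% of all protein-coding genes had an unshared one, led by Gpc5 with 23 of 65, Gpc6 with 11 of 41 and Slc4a4 with 8 of 18. Stem cell and progenitor genes had 13 and 8 of 25, with Lpar1, Prom1 and Egfr at 2 unshared peaks each. Oligodendrocyte genes had 9 and 6 of 15, with Pdgfra at 2, microglia genes 8 and 5 of 14, with Csf1r at 3, and vessel genes 8 and 4 of 12, with Flt1 and Tek at 3 each. Redox enzymes had 17 and 9 of 34, and Txnrd3 led them, followed by Slc7a11 and Cat with 2 of 4 each. Adenine methylation genes, most of which act on RNA, had 10 and 6 of 18, with Fto at 5 of 15 and Zc3h13 at 3 of 3. Besides enzymes, that list holds partners of the enzymes and proteins that bind the methylated base. Respiratory chain genes had 10 and 3 of 34, with Ndufs4 and Uqcrc2 at 2 unshared peaks each. Ribosomal protein genes, with a median length of 3.43 kb, had a Neuron peak in 1 of 35, or 2.86%, and it was not unshared. In the length deciles with medians of 2.21 and 4.64 kb, 11.1% and 16.1% of genes had a Neuron peak.

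**Figure D5:**
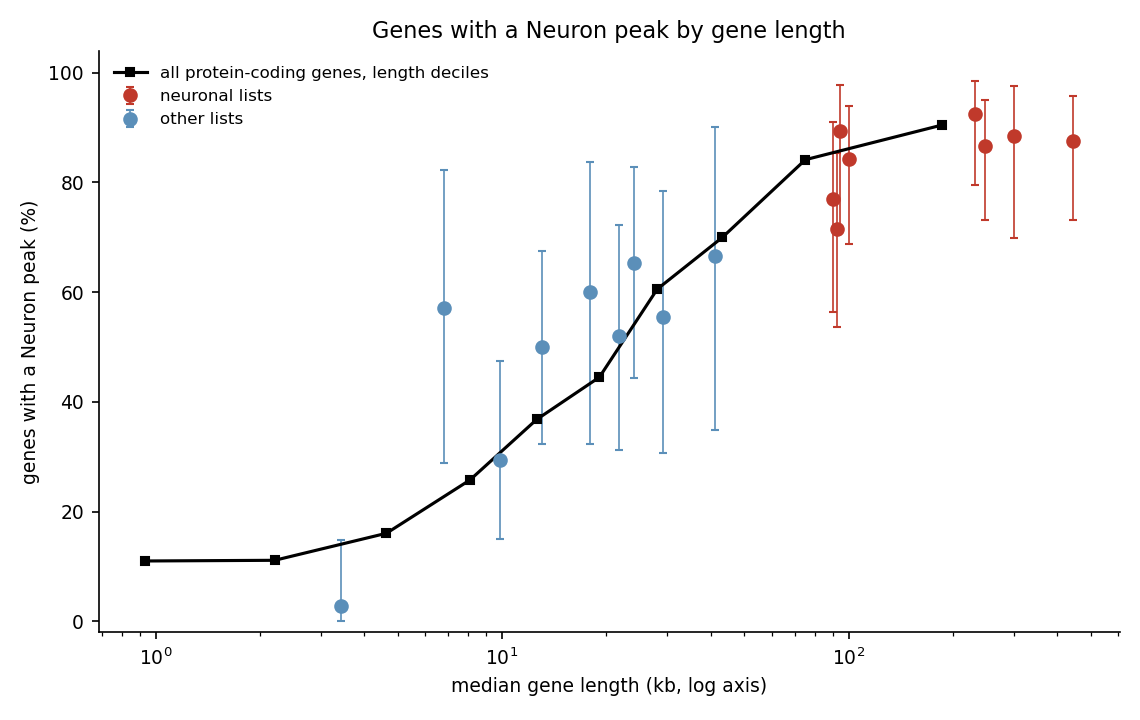
Share of genes with a Neuron peak (percent, y axis) against median gene length (kb, log x axis) for neuronal lists, other lists and length deciles of all protein-coding genes (black line); error bars on the lists are 95% intervals for counting error. The deciles lie between 11% and 90.5%, the neuronal lists between 71.4% and 92.5%, and ribosomal protein genes lowest at 2.86%.

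A few list members had Neuron peaks and no peak in NSCs or Astrocytes, and they are named here for that, after their values were seen. They were no more frequent than elsewhere: 13 of the 489 list genes had this pattern, 2.66%, against 5.10% of all protein-coding genes. Among neuronal genes such members were Cplx2, a complexin of vesicle release, Gabrd, the delta subunit of the GABA receptor, and Kcna2, a potassium channel, with 1 peak each, and Sema6d, a guidance semaphorin, with 2. Sox9, Glul and Clu of the astrocyte list had 1 peak each, with folds of 8.76, 14.5 and 8.07, and so did Mag of the oligodendrocyte list. Prdx6, Wtap, Ythdf2 and Uqcrh again had 1 peak each.

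The GO and KEGG tables of Neurons count genes with any Neuron peak, and all 9929 genes they name had one. In the authors' deposited table, adjusted p was under 0.05 for 58 of 14120 GO terms (0.411%), 46 with more genes than expected and 12 with fewer, and for 48 of 325 KEGG pathways (14.8%), 46 with more and 2 with fewer. The authors' deposited table expects a peak in 44.4% of the genes of every term. The smallest p-values belonged to large receptor families with fewer genes than expected. Olfactory receptor activity had 215 of 1344 genes (fold 0.360, adjusted p 1.97e-49) in the authors' deposited table, G protein-coupled receptor activity 361 of 1603 (0.507, 1.31e-30) and odorant binding 55 of 423 (0.293, 2.20e-19). The KEGG pathway of olfactory transduction had 242 of 1330 genes (0.410, 3.32e-41) and that of the ribosome 32 of 176 (0.410, 5.47e-05), in the authors' deposited table.

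Terms with more genes than expected were broad cell compartments, signalling and synapse terms. Cytoplasm had 2014 of 3443 genes (fold 1.32, adjusted p 6.65e-17), cytosol 1623 of 2714 (1.35, 4.97e-16), ATP binding 934 of 1433 (1.47, 2.90e-15) and calcium ion binding 449 of 651 (1.55, 4.77e-09) in the authors' deposited table. In the authors' deposited table the neuronal cell body had 367 of 548 genes (1.51, 3.47e-06), the dendrite 312 of 464 (1.51, 2.60e-05) and the postsynaptic density 187 of 260 (1.62, 0.000464). These 3 were picked as neuronal and ranked 7, 12 and 20 by p among GO terms with more genes than expected. Integral component of plasma membrane, metal ion binding, membrane and cell junction were among the terms ranked above the dendrite. Among pathways of the authors' deposited table, metabolic pathways had 792 of 1370 genes (1.30, 1.74e-06), focal adhesion 143 of 202 (1.59, 0.00205), axon guidance 124 of 178 (1.57, 0.00617) and the glutamatergic synapse 88 of 116 (1.71, 0.00660). The last 2 ranked 5 and 10 among pathways with more genes than expected. Pathways in cancer, PI3K-Akt, Rap1, Ras and oxytocin signalling and pancreatic secretion ranked above the glutamatergic synapse as well. Neuron peaks were more frequent in long genes, as given above, and the part of gene length in the terms was not tested.

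These terms were not particular to the Neuron list. Of the 46 GO terms with more genes than expected, 43 passed in the authors' deposited tables of NSCs and Astrocytes as well, and 41 of the 46 KEGG pathways did. AMPK signalling, the energy-sensing kinase pathway, was the single one that passed for Neurons alone, with 83 of 127 genes and an adjusted p of 0.0480 in the authors' deposited table, beside 0.0619 for Astrocytes and 0.0539 for NSCs, so the 3 values lie close on either side of the threshold. In the other direction, 11 GO terms and 18 pathways passed in the authors' deposited tables of NSCs and Astrocytes but not of Neurons. Of the Neuron peaks in the genes of a term, the unshared part was 35.4% for the neuronal cell body, 37.3% for the GO term glutamatergic synapse, 36.9% for the axon guidance pathway and 32.8% for cell junction. Over all protein-coding genes that part was 35.7%. Genes of olfactory receptor activity held 235 Neuron peaks, and 105 of them, 44.7%, were unshared. For the related term odorant binding the part was 40.4% of 57 peaks, and for the pathway of olfactory transduction 38.8% of 513.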

How the data were processed

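Genomic DNA was sonicated, ligated to adapters, denatured, enriched with an antibody against 6mA and eluted with 6mA monophosphate, per the labels' protocols. Reads were aligned with BWA, per the submitters' processing notes, which give no version. The deposited mapping summary holds read counts and percent mapped per library, per the file headers. The peak names start with MACS, per the file headers. The version of that caller, the build and the source of the annotation: not given in the sources used here. Per the file headers the score is 10 times the −log10 of the caller's p, with a minimum of 50. The deposited fold is the ratio of a library to its input or, in the direct comparisons, to another enriched library. GO and KEGG gene counts, expected numbers, fold and p-values are those of the authors, from the deposited tables. Peak scores and folds, as the authors computed them, were ranked only within a list. The files hold no tags per peak, so the score was used where tags had been planned. The astrocyte input in the mapping summary (1 line) was not used here.

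Overlaps, distances, shares and intervals were computed with Python 3.11.15, pandas 2.3.3, numpy 2.4.6 and SciPy 1.17.1, and the overlap code was tested on simulated data. Deciles divide the Neuron peaks into 10 equal groups by score. Genes were taken from the deposited annotation classes (promoter, upstream and downstream 2 kb, exon, intron), and a peak can count for several genes. Lengths came from RefSeq on GRCr8, matched by symbol for 10268 of 10353 named genes and for 488 of 489 genes of the 17 lists. Density used that length, or the span of the gene's peaks where longer. The peaks, gene lists and tests were chosen with earlier results of these data known. The genes named are, per group, the 10 with the highest score, the largest fold or the most unshared peaks (by number, or per 100 kb in genes of at least 20 kb with at least 5), the first 3 of each list, the first 10 promoter and 5 island peaks, the 5 widest peaks, and both genes of the title. The GO and KEGG terms named are a selection and include neuronal terms ranked below the first 10. A few genes that this rule names are not reported here. Alternatives were a minimum score or fold, 50% overlap, a 500 bp gap, lists of equal size and gene body classes only. The accounts by miRNA gene, promoter composition, width, gene length and distance to the overlap limit, and of peaks without a named gene, were added after values were seen. No test between cell types was made, since each has 1 enriched library.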

Additional observations from a re-analysis of the deposited data

How the results depend on the processing

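Of 81 alternative values, 41 lay within the counting interval of the reported value or, for counts, within 1.5 times it, and 40 did not; no order between unshared peaks and peaks shared by all 3 lists in score, fold or width turned round. With the median Neuron score as a minimum in all 3 lists, 31.1% of Neuron peaks were unshared and 47.3% shared by all 3 lists. Medians were then 111 and 359 in score, 14.5 and 26.2 in fold and 468 and 653 bp in width, and the median distance was 10942 bp. The unshared share was 67.8% in the lowest score decile, 42.1% in CpG islands, 31.5% in promoters, 29.3% in introns and 22.9% on chromosome 12, with 704 unshared promoter peaks, 11 astrocyte genes, 5 adenine methylation genes and 4 respiratory chain genes with a Neuron peak. With that minimum on Neuron peaks alone the unshared and fully shared parts were 15.4% and 63.2%. With the median fold as a minimum they were 36.4% and 40.4%, with peaks within 500 bp taken as shared 33.1% and 41.3%, and when each list was cut to its 57113 highest scores 24.5% and 54.4%. With at least 50% of the Neuron peak covered they were 38.2% and 36.4%. Medians were then 66.3 and 208 in score, 398 and 568 bp in width and, for peaks shared by all 3 lists, 19.5 in fold. The unshared share was then 68.8% in the lowest and 0.356% in the highest score decile, 38.7% in promoters, 37.1% in introns, 30.3% on chromosome 12 and 48.8% on the X chromosome. With gene body classes only, 0 ribosomal protein genes had a Neuron peak. The cause of these shifts was not tested. No paired analysis was possible because each cell type has 1 enriched library, and no library could be left out for the same reason. Depth per peak is not in the files, so how far weak peaks of NSCs and Astrocytes fell under the threshold is unknown.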
